A study of Mus musculus with 4 samples.

Results

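Transcript abundance in Mettl3-deficient liver was compared with that in control liver from the input libraries of an m6A profiling experiment, gene by gene. The HKO mice carried floxed Mettl3 alleles on both chromosomes together with Alb-Cre (genotype Mettl3 flox/flox Alb-Cre), and the control mice were Mettl3 flox/flox without Cre. Both groups had the C57BL/6 background, ate normal chow and were used at 8 weeks of age, and the sex of the mice is not given in the labels. Poly(A)+ RNA of the liver was fragmented chemically, and the input is the part sequenced without the m6A antibody. Of the 4 libraries of the series, 2 were used, HKO input and flox input, each made from RNA pooled from several mice. Alb-Cre acts in hepatocytes, so the other cells of the liver keep Mettl3 in both groups, and 1 floxed line stands for the deletion.

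A gene was measured only where the deposited table places an m6A peak on it, called from the immunoprecipitated RNA. The reads of the HKO and flox inputs were summed over the distinct peaks that overlap the gene and divided by the total of the library. The table holds 12815 distinct peaks, of which 11812 overlap a gene, and they give values for all 7823 genes with a peak. The libraries held 18365473 reads for HKO input and 14972301 for flox input, of which 20.4% of HKO reads and 19.98% of flox reads lay in peaks. The median gene had 164 reads in HKO input and 111 in flox input. Abundance is given as RPM (reads of the gene's peaks per 1000000 reads of the library), and the change as the log2 of HKO RPM over flox RPM. The range after each change is the exact 95% counting interval of the reads. With 1 library per genotype no change has a replicate check or a test, and the interval covers counting error only, with PCR copies counted as reads.

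METTL3 is the catalytic subunit of the nuclear complex that writes N6-methyladenosine (m6A) on mRNA while it is transcribed. The mark is read by YTH proteins, and YTHDF2 brings marked transcripts to decay. Many short-lived mRNAs carry it, immediate-early mRNAs among them. These encode transcription factors such as FOS, JUN and EGR1, are induced within minutes by growth factors, cytokines or tissue handling, and decay quickly. In hepatocytes, which make most plasma proteins, bile acids and detoxifying enzymes, a further layer of regulation is sex-biased, with the male pattern of secreted and P450 genes set by pulses of growth hormone through STAT5.

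No peak was listed on Mettl3, and the deletion can therefore not be read from these libraries. The table likewise has none on Cd36, a fatty acid transporter, Ccl2, a monocyte chemoattractant, or Srebf1, a regulator of lipogenesis. For Srebf1 the study itself reports m6A peaks, decreased in HKO liver, so the deposited peaks differ from its statement. The cause of that difference was not tested. The liver identity of the samples was visible in both libraries. Per kb of peak, Apoe had 9055 RPM in HKO input and 10397 in flox input, Apoa1 6311 in HKO and 6254 in flox, and Ahsg, a secreted hepatocyte glycoprotein, 3910 in HKO and 4096 in flox. Albumin (Alb) had 4872 reads in HKO input and 5412 in flox input, a log2 change of -0.45 (-0.50 to -0.39). No marker of neutrophils or of pancreas on the lists had a peak.

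Among 7729 genes with at least 20 reads in both inputs together, 1058 were at least 2-fold higher in HKO input (13.7%) and 330 at least 2-fold lower (4.27%). The other 94 genes had fewer reads. Counts past 2-fold in the lists below are to be read against 13.7% higher and 4.27% lower. The counting interval lay wholly above 0 in 3091 genes and wholly below 0 in 1333, and it included 0 in 3305. The interval lay wholly beyond a 2-fold rise in 402 genes and beyond a 2-fold fall in 145. Changes of 8-fold or more were seen in 33 genes that were higher and 34 that were lower. The median gene had a log2 change of 0.22, or 1.16-fold, and the quartiles were -0.18 and 0.67. Scaled by DESeq2 size factors, which bring the median gene to 0.00, 708 genes were higher and 506 lower. The share of changed genes that were higher was then 58.3%, against 76.2% with library totals. A list with a median of 0.22 therefore lies at the median gene, and the distance from it is given for several lists below. With size factors Gclc (0.87), Cish (0.95), Agpat2 (0.94), Egfl7 (0.94), Elovl6 (0.82), Prox1 (0.81), Rbm15 (0.83) and Ythdf1 (0.85), all named below, no longer reached 2-fold. The same shift of -0.217 in every gene also takes Srf and Eif2s3x, named below, under 2-fold. The 10 genes with the most reads held 15.4% of the peak reads in HKO input and 19.6% in flox input.

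**Figure D1:**
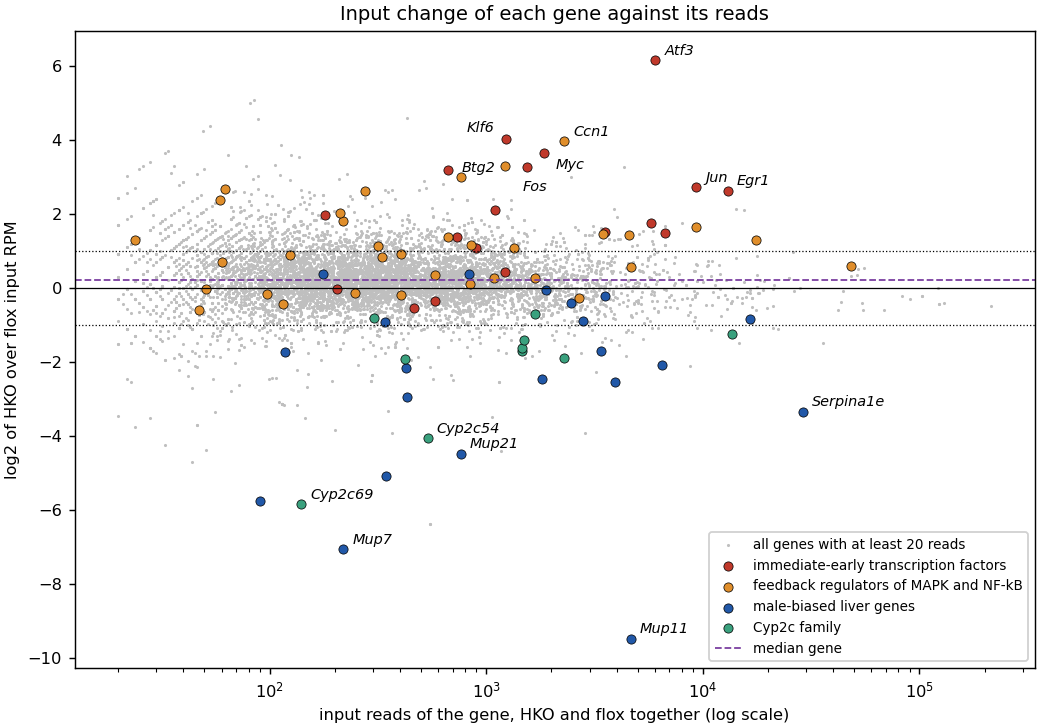
Log2 of HKO over flox input RPM (vertical axis) against the reads of the gene in both inputs together (horizontal, log scale) for the 7729 genes with at least 20 reads; grey points are all genes and coloured points members of 4 groups. The dashed line is the median gene at 0.22 and the dotted lines mark 2-fold; Atf3 stands highest at 6.16 and Mup11 lowest at -9.48.

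Depth set how far a single gene could be read. The median half-width of the interval was 0.84 on the log2 scale among 1543 genes with 20 to 99 reads, 0.41 among 3616 genes with 100 to 499, 0.21 among 1962 genes with 500 to under 2000, and 0.10 among 608 genes with 2000 or more. The share of genes at least 2-fold higher was 22.7% in the shallowest of these classes and 10.4% in the deepest, and the share at least 2-fold lower was 7.19% and 6.41%. Genes named below have their reads beside them for this reason. Reads on overlapping genes were given to each of them: 2055 genes shared a peak with another gene, and 1600 had all of their reads in shared peaks.

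The most extreme rise among genes with at least 100 reads, predicted genes left out, was that of Atf3, a stress-induced transcription factor of the ATF/CREB family. Atf3 had 5975 reads in HKO input and 68 in flox input (325 RPM in HKO and 4.54 in flox), a log2 change of 6.16 (5.82 to 6.53), or 71.6-fold. Its 3′ UTR peak on chromosome 1, from 191170537 to 191171716 (GRCm38), had 5444 reads in HKO input and 62 in flox input. The second peak, over exon 3 from 191172259 to 191172565, had 531 reads in HKO input and 6 in flox input, so the log2 change was 6.16 at one and 6.17 at the other. Atf3 belongs to the list of immediate-early transcription factors, the list with the highest median of all fixed lists with at least 3 genes.

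Of the 26 immediate-early factors listed, 19 had a peak and 18 had at least 20 reads. Among these, 14 were at least 2-fold higher (77.8%, against 13.7% of all genes) and 0 at least 2-fold lower. Their median log2 change was 1.87, which is 1.66 above the median gene. Together their peaks held 2556 RPM in HKO input and 538 RPM in flox input. This list and the other fixed lists were chosen with earlier results of these data known. The shares of changed genes in them are therefore not independent of that choice. In whole tissue, more of the cells that express a gene and more RNA per cell cannot be told apart, and this holds for every gene below.

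Klf6, a zinc-finger factor induced by liver injury, had 1177 reads in HKO input and 59 in flox input, a log2 change of 4.02 (3.65 to 4.43). Myc, the growth-promoting bHLH factor, had 1740 reads in HKO input and 113 in flox input, a change of 3.65 (3.37 to 3.94). Fos, the inducible partner in AP-1, had 1414 reads in HKO input and 120 in flox input, a change of 3.26 (2.99 to 3.55). All 3 were thus more than 8-fold higher. The other AP-1 subunits rose less: Jun had 8283 reads in HKO input and 1023 in flox input (2.72, 2.63 to 2.82), Junb 5162 in HKO and 1498 in flox (1.49, 1.41 to 1.57), Jund 2756 in HKO and 787 in flox (1.51, 1.40 to 1.63), and Fosl2 149 in HKO and 31 in flox (1.97, 1.40 to 2.58). Egr1, a serum-responsive zinc-finger factor, had the most reads of the list, 11500 in HKO input and 1505 in flox input, with a change of 2.64 (2.56 to 2.72).

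Ier5, an immediate-early regulator of the heat shock response, had 612 reads in HKO input and 55 in flox input (3.18, 2.78 to 3.61). Ier2, an immediate-early gene of the same family, had 4673 reads in HKO input and 1113 in flox input (1.78, 1.68 to 1.87). Klf10, a TGF-beta-inducible factor, had 923 reads in HKO input and 173 in flox input (2.12, 1.89 to 2.36), and the nuclear receptor Nr4a1 had 562 in HKO and 174 in flox (1.40, 1.15 to 1.65). Srf, the factor through which serum acts on Fos and Egr1, had 649 reads in HKO input and 247 in flox input (1.10, 0.89 to 1.32), but all of them lie in peaks that Gm26904 also overlaps.

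The list was not uniform. Klf2, a flow-induced factor of endothelium, had 760 reads in HKO input and 455 in flox input, a change of 0.45 (0.28 to 0.62). Klf4, its relative, had 112 reads in HKO and 92 in flox (-0.01, -0.42 to 0.40). Csrnp1, a nuclear protein induced by AXIN1, had 212 reads in HKO input and 250 in flox input (-0.53, -0.80 to -0.26), and Maff, a small MAF factor, had 284 in HKO and 296 in flox (-0.35, -0.59 to -0.11). The 4 genes lay within 2-fold.

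**Figure D2:**
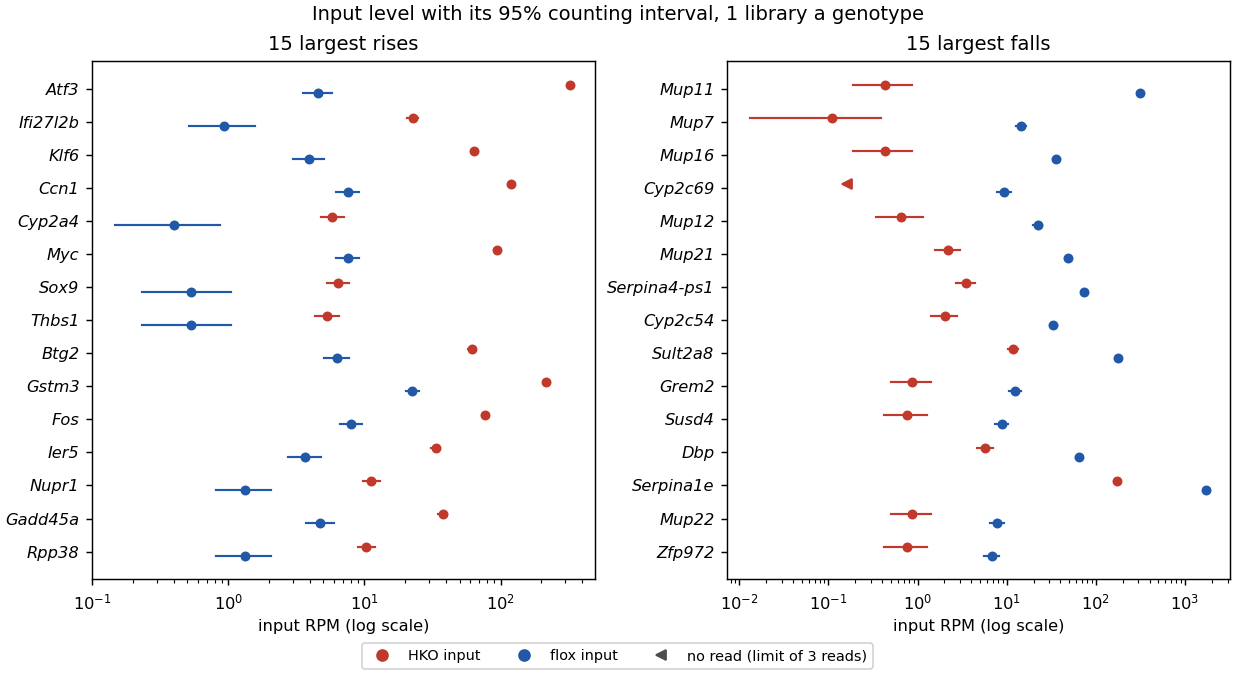
Input RPM (log scale) of the 15 largest rises and the 15 largest falls among genes with at least 100 reads, with HKO input in red and flox input in blue; points are single libraries and bars their 95% counting intervals. Atf3 stands at 325 RPM in HKO input and 4.54 in flox input, and the triangle marks Cyp2c69, which had 0 reads in HKO input and is drawn at the limit of 3 reads.

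The promoters of 5 immediate-early genes among the 15 largest rises are shown because many immediate-early genes are induced through the cyclic AMP response element (CRE), and the transcripts differ in whether they carry it close to their start. The bases below are the 200 before the transcript start, from RefSeq on GRCm38.p6, printed 5′ to 3′ on the strand of the gene. Capitals mark the CRE core TGACGT (read as ACGTCA on the other strand, and lengthened to TGACGTCA where the full palindrome is present), the TATA box TATAAA, or the E-box CACGTG. Atf3 and Btg2 are on chromosome 1 (191183334 to 191183533 and 134079156 to 134079355, minus strand), Ccn1 on chromosome 3 (145649986 to 145650185, minus strand), Fos on chromosome 12 (85473690 to 85473889, plus strand) and Klf6 on chromosome 13 (5861289 to 5861488, plus strand).
Atf3: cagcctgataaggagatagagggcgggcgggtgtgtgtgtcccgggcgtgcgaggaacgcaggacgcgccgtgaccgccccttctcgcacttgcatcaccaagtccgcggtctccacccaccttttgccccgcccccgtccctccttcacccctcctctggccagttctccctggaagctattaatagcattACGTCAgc
Ccn1: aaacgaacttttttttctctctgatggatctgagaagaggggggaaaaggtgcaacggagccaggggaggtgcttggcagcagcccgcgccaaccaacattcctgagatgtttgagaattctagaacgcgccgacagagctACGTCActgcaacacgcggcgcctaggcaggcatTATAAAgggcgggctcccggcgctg
Fos: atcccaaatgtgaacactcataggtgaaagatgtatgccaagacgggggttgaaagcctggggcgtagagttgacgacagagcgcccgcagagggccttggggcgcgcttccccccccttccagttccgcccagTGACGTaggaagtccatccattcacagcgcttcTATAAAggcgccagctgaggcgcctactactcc
Btg2: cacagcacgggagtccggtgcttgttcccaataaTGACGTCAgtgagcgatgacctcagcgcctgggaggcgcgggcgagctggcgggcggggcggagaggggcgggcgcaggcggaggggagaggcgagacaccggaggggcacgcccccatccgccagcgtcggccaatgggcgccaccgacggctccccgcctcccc
Klf6: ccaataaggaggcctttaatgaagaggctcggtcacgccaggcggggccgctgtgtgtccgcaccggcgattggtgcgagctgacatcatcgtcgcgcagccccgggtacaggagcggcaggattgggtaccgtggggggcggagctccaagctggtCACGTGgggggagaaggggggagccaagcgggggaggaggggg

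In these windows the CRE core lies 8 bases before the start in Atf3, 59 in Ccn1, 66 in Fos and 166 in Btg2. Ccn1 and Fos also have TATAAA between the core and the start. Klf6 has the E-box but no core. The 5 were picked with the matches in view: over the 15 largest rises, 11 had an entry and 5 of them held the core, Rpp38 among them, and Cyp2a4, Gstm3, Ier5, Nupr1 and Gadd45a, not printed, had none in the 200 bases. The search covered 250 bases before each start on both strands, and genes with several starts counted once. TGACGT was searched for after promoters had been read, and each full CRE also holds the core. It was found in 3 of 14 immediate-early factors with a RefSeq entry (21.4%) and in 11 of 28 feedback regulators (39.3%). The share was 12.6% of the genes at least 2-fold higher (94 of 744), 8.37% of those at least 2-fold lower (20 of 239), and 11.7% of all genes of the table with an entry (632 of 5412). Over all mouse genes with an entry it was 7.29%. A match describes the letters of the window and not binding.

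The genes that switch such responses off were read next. Of the feedback regulators of MAPK and NF-kB signalling, 34 of 42 were measured, 17 were higher and 0 lower by at least 2-fold. The median was 1.01, which is 0.79 above the median gene. Ccn1, a matricellular target of YAP and SRF, had 2181 reads in HKO input and 113 in flox input (3.98, 3.70 to 4.26). Btg2, an antiproliferative adaptor of mRNA deadenylation, had 1128 reads in HKO input and 94 in flox input (3.29, 2.99 to 3.61). Gadd45a, a stress sensor that activates p38 and JNK, had 693 reads in HKO input and 71 in flox input (2.99, 2.64 to 3.37). These 3 were among the 15 largest rises of the table.

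Among factors that bind AU-rich mRNA for decay, Zfp36 (tristetraprolin) had 13230 reads in HKO input and 4395 in flox input (1.30, 1.25 to 1.34). Zfp36l1 had 7350 reads in HKO input and 1918 in flox input (1.64, 1.57 to 1.72), all in peaks shared with Gm26669. Tnfaip3 (A20), which edits ubiquitin in the NF-kB pathway, had 244 reads in HKO input and 32 in flox input (2.64, 2.1 to 3.22), and Trib1, a pseudokinase that degrades C/EBP-alpha, had 3513 in HKO and 1051 in flox (1.45, 1.35 to 1.55). Among the dual-specificity phosphatases, which switch MAP kinases off, Dusp6 had 507 reads in HKO input and 158 in flox input (1.39, 1.13 to 1.65). Dusp1 lay within 2-fold, with 2990 reads in HKO input and 1649 in flox input (0.56, 0.48 to 0.65).

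Other members of the feedback list lay within 2-fold. Errfi1, an inhibitor of EGFR, had 31374 reads in HKO input and 16916 in flox input (0.60, 0.57 to 0.62). Nfkbia, the NF-kB inhibitor IkB-alpha, had 480 reads in HKO input and 362 in flox input (0.11, -0.09 to 0.31). Socs3, which stops IL-6 signalling, had 131 reads in HKO input and 116 in flox input (-0.12, -0.49 to 0.25). Gadd45g, unlike Gadd45a, had 1357 reads in HKO input and 1334 in flox input (-0.27, -0.38 to -0.16). So within both lists genes that rose more than 8-fold stood beside genes that did not rise.

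**Figure D3:**
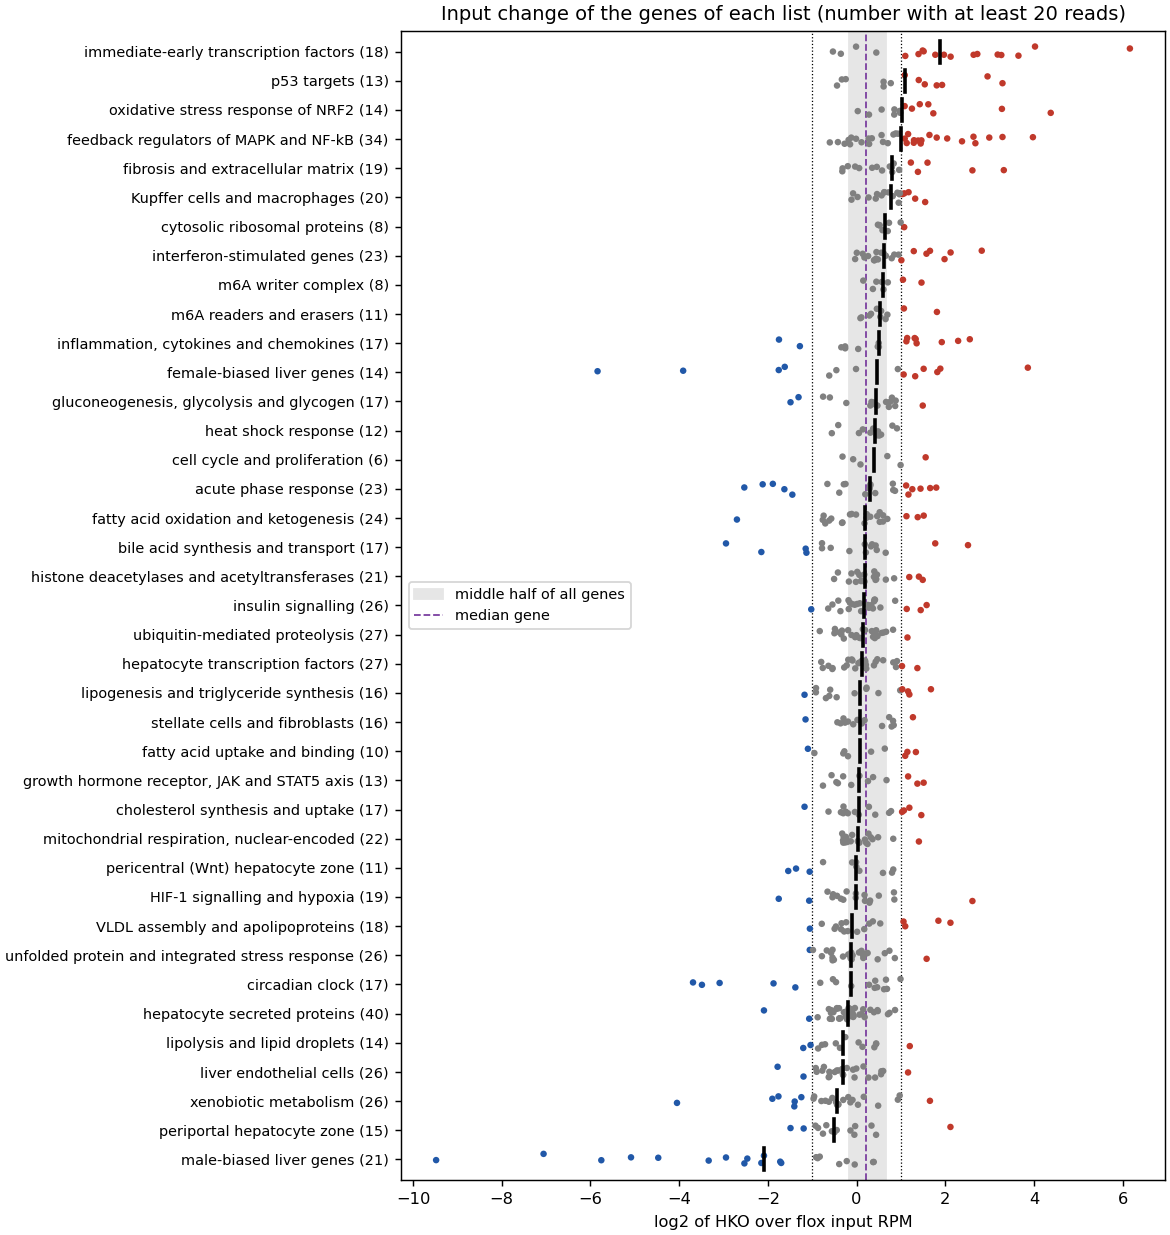
Log2 of HKO over flox input RPM for each gene with at least 20 reads (points) of every fixed list with at least 6 such genes, ordered by the list median (black bar); red points are at least 2-fold higher and blue points at least 2-fold lower. The grey band is the middle 50% of all genes and the dashed line the median gene at 0.22; the immediate-early list has the highest median at 1.87 and the male-biased list the lowest at -2.09.

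Stress pathways differed in how many of their genes moved. Of 14 measured genes of the NRF2 oxidative stress response, 7 were higher (50%, against 13.7% of all genes) and 0 lower by at least 2-fold. Their median was 1.03 (0.82 above the median gene). Gstm3, a glutathione transferase, had 3996 reads in HKO input and 336 in flox input (3.28, 3.12 to 3.44). Gclc, the rate-limiting enzyme of glutathione synthesis, had 1683 reads in HKO input and 647 in flox input (1.08, 0.95 to 1.22). Nfe2l2, which encodes NRF2 itself, had 2365 reads in HKO input and 718 in flox input (1.43, 1.30 to 1.55). Cbr3, a carbonyl reductase, had 51 reads in HKO input and 2 in flox input, a change of 4.38 with an interval of 2.45 to 7.46.

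Of 13 measured p53 targets, 7 were higher (53.8%, against 13.7% of all genes) and 0 lower by at least 2-fold. Their median was 1.09 (0.87 above the median gene). Cdkn1a (p21), the cell cycle inhibitor, had 488 reads in HKO input and 137 in flox input (1.54, 1.26 to 1.82). Bax, which permeabilizes mitochondria in apoptosis, had 402 reads in HKO input and 124 in flox input (1.40, 1.11 to 1.70), and the exonuclease Aen had 467 in HKO and 100 in flox (1.93, 1.61 to 2.26). All of the Bax reads lie in peaks that another gene also overlaps. Mdm2, the ligase that degrades p53, lay within 2-fold at 307 reads in HKO input and 164 in flox input (0.61, 0.33 to 0.89). Btg2 and Plk2 stand on this list and on the feedback list. Nupr1, a stress-induced chromatin protein outside these lists, had 207 reads in HKO input and 20 in flox input (3.08, 2.41 to 3.82).

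The unfolded protein response did not show such a shift. Of 26 measured genes 1 was higher and 1 lower by at least 2-fold, and the median was -0.12 (-0.33 from the median gene). Trib3, a pseudokinase induced by CHOP, had 44 reads in HKO input and 12 in flox input (1.58, 0.63 to 2.64), and Creld2, a chaperone of the endoplasmic reticulum, had 98 in HKO and 166 in flox (-1.06, -1.43 to -0.69). The chaperone Hyou1 had 167 reads in HKO input and 269 in flox input (-0.98, -1.27 to -0.70), and Herpud1, which acts in degradation from the endoplasmic reticulum, had 1094 in HKO and 1533 in flox (-0.78, -0.89 to -0.67). None of the 12 measured heat shock genes reached 2-fold in either direction, and their median was 0.41. Hsp90ab1, a cytosolic chaperone, had 7370 reads in HKO input and 4635 in flox input (0.37, 0.32 to 0.43).

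Inflammatory genes moved in both directions. Of 17 measured cytokine, chemokine and receptor genes, 8 were higher (47.1%, against 13.7% of all genes) and 2 lower (11.8%, against 4.27%) by at least 2-fold. Their median was 0.50 (0.29 above the median gene). Csf1, the macrophage growth factor, had 323 reads in HKO input and 103 in flox input (1.35, 1.03 to 1.69). The neutrophil chemokine Cxcl1 had 170 reads in HKO input and 55 in flox input (1.33, 0.89 to 1.80), and the receptor Tlr2 had 72 in HKO and 10 in flox (2.55, 1.59 to 3.67). Against these, the IL-1 receptor Il1r1 had 331 reads in HKO input and 907 in flox input (-1.75, -1.93 to -1.57), and Cxcl12, a homing chemokine, had 852 in HKO and 1684 in flox (-1.28, -1.40 to -1.16), or -0.83 at its deepest peak. Summed over the list, 385 RPM stood in HKO input and 462 RPM in flox input, so the sum was lower in HKO input although the median was above 0.

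The acute phase response was split in the same way, with 6 of 23 genes at least 2-fold higher (26.1%, against 13.7% of all genes). Another 5 were at least 2-fold lower (21.7%, against 4.27%), and the median was 0.31. Lcn2 (lipocalin 2), an iron-scavenging protein, had 358 reads in HKO input and 84 in flox input (1.80, 1.45 to 2.16). Saa2, a serum amyloid, had 258 reads in HKO input and 88 in flox input (1.26, 0.90 to 1.62), and Hamp2, a hepcidin paralogue, had 2303 in HKO and 691 in flox (1.44, 1.32 to 1.57), all in peaks shared with Gm44662. On the other side Crp, C-reactive protein, had 1923 reads in HKO input and 6798 in flox input (-2.12, -2.19 to -2.04). The metallothionein Mt1 had 377 reads in HKO input and 1137 in flox input (-1.89, -2.06 to -1.72), and Saa4, the constitutive serum amyloid, had 1056 in HKO and 2348 in flox (-1.45, -1.55 to -1.34). Il1rap, the co-receptor of Il1r1, had 959 reads in HKO input and 2415 in flox input (-1.63, -1.74 to -1.52), but 2 intronic peaks held most of these reads, and over its exonic peak alone Il1rap had 74 reads in HKO input and 114 in flox input (-0.92), which is within 2-fold.

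Interferon-stimulated genes were shifted upwards, with 7 of 23 at least 2-fold higher (30.4%, against 13.7% of all genes) and 0 at least 2-fold lower. Their median was 0.61 (0.40 above the median gene). Oasl1, which restrains IRF7 translation, had 564 reads in HKO input and 65 in flox input (2.82, 2.45 to 3.22). The ubiquitin-like modifier Isg15 had 359 reads in HKO input and 74 in flox input (1.98, 1.62 to 2.36), and Ifit1, which binds foreign RNA caps, had 228 in HKO and 59 in flox (1.66, 1.24 to 2.09). Ifi27l2b, a small protein of the interferon-inducible IFI27 family, had 416 reads in HKO input and 14 in flox input (4.60, 3.84 to 5.48), second among the rises.

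Markers of other liver cells moved beside these lists. Of the 28 Kupffer cell and macrophage markers 20 were measured, and 5 were higher (25%, against 13.7% of all genes) and 0 lower by at least 2-fold. The median was 0.77 (0.55 above the median gene). Their summed level was 1129 RPM in HKO input and 648 RPM in flox input. Cd68 had 276 reads in HKO input and 77 in flox input (1.55, 1.18 to 1.93), and Mpeg1, the pore-forming perforin of macrophages, had 3124 in HKO and 1019 in flox (1.32, 1.22 to 1.42). Clec4f, the lectin that defines mouse Kupffer cells, had 2355 reads in HKO input and 1394 in flox input (0.46, 0.37 to 0.56), and Cd163 had 71 in HKO and 57 in flox (0.02, -0.50 to 0.55). No peak was listed on Adgre1, another defining marker. Markers of liver endothelium summed to 624 RPM in HKO input and 616 in flox input over 26 genes, with a median of -0.31. Of these, Egfl7 alone gave 4878 reads in HKO input and 1778 in flox input, in a peak it shares with Agpat2. Without Egfl7 the other 25 summed to 358 RPM in HKO input and 498 in flox input, with a median of -0.32. Stellate cell markers summed to 283 RPM in HKO input and 261 in flox input over 16 genes, with a median of 0.07 that becomes -0.15 with size factors. The part of macrophage RNA in the immediate-early, inflammatory and interferon results was not tested.

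Sox9 and Spp1, genes of the bile duct and of injured hepatocytes, were 2 of the 3 cholangiocyte markers measured of 15. Sox9 had 118 reads in HKO input and 8 in flox input (3.59, 2.56 to 4.83), and Spp1 (osteopontin) had 536 in HKO and 187 in flox (1.22, 0.98 to 1.47). No peak was listed on Krt7, Krt19 or Epcam, the defining markers of cholangiocytes. Of 19 measured fibrosis and matrix genes, 5 were higher and 0 lower by at least 2-fold, with a median of 0.79. Thbs1, an activator of latent TGF-beta, had 98 reads in HKO input and 8 in flox input (3.32, 2.29 to 4.57), and the basement membrane collagen Col4a1 had 487 in HKO and 131 in flox (1.60, 1.32 to 1.89). The fibrillar collagens lay within 2-fold, Col3a1 with 140 reads in HKO input and 66 in flox input (0.79, 0.36 to 1.24) and Col1a2 with 106 in HKO and 58 in flox (0.58, 0.10 to 1.06).

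The deepest falls were in major urinary proteins, pheromone carriers that male liver secretes. All 8 Mup genes with a peak fell at least 2-fold, against 4.27% of all genes, and together they held 4.79 RPM in HKO input and 449 RPM in flox input. Mup11 had 8 reads in HKO input and 4653 in flox input, a log2 change of -9.48 (-10.69 to -8.50). Its single peak lies in the 3′ UTR on chromosome 4 from 60658496 to 60658685. Mup21 had 40 reads in HKO input and 723 in flox input (-4.47, -4.97 to -4.01), and Mup16 had 8 in HKO and 539 in flox (-6.37, -7.59 to -5.38). Mup7 had 2 reads in HKO input and 217 in flox input, a change of -7.06 with an interval of -10.11 to -5.19. The Mup genes are near-identical copies: 52.5% of the 50-base words under the Mup11 peak also occur in other genes, 85.7% under Mup16 and 100% under Mup22. Which copy a read came from is uncertain, and the fall is better read for the family than for a member.

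The male-biased list, which holds Mup genes and others, was also chosen with earlier results known. Of its 21 measured genes, 13 were at least 2-fold lower (61.9%) and 0 at least 2-fold higher. The median was -2.09, or -2.30 from the median gene, and the summed level was 1057 RPM in HKO input and 4058 RPM in flox input. The median was -0.91 over the 9 genes with few words elsewhere, an alternative added after the data were seen. Among genes with no or few shared words, Cyp7b1, the oxysterol 7-alpha-hydroxylase, had 59 reads in HKO input and 370 in flox input (-2.94, -3.37 to -2.54). The EGF receptor Egfr had 330 reads in HKO input and 1483 in flox input (-2.46, -2.64 to -2.29). The organic anion transporter Slco1a1 had 92 reads in HKO input and 332 in flox input (-2.15, -2.50 to -1.81), and the complement subunit C8a had 1456 in HKO and 5045 in flox (-2.09, -2.17 to -2.0). Hsd3b5, a male-specific steroid enzyme with 16.2% of its words elsewhere, had 688 reads in HKO input and 3236 in flox input (-2.53, -2.65 to -2.41).

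Not every male-biased gene fell. Cyp4a12a, an arachidonic acid hydroxylase of male liver, had 1024 reads in HKO input and 859 in flox input (-0.04, -0.17 to 0.09). Of its words 33.8% also occur in Cyp4a12b, so which copy the reads came from is uncertain. Ugt2b1, a steroid glucuronosyltransferase, lay within 2-fold at a change of -0.22. Bcl6, the repressor of female-biased genes in male liver, lay at 0.37. Of the genes of the growth hormone axis itself, 3 of 13 were higher (23.1%, against 13.7% of all genes) and 0 lower by at least 2-fold, with a range of -0.76 to 1.51 and a median of 0.06 that becomes -0.15 with size factors. Igf1, the hormone made under growth hormone, had 1952 reads in HKO input and 2690 in flox input (-0.76, -0.84 to -0.67), and Socs2 had 249 in HKO and 300 in flox (-0.56, -0.81 to -0.32). Cish, another STAT5 target, had 626 reads in HKO input and 228 in flox input (1.16, 0.94 to 1.39). Of these, 566 in HKO input and 212 in flox input lay in a peak that another gene also overlaps.

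The female-biased list had 6 of 14 measured genes higher and 4 lower by at least 2-fold, with a median of 0.46. Cyp2a4, a steroid 15-alpha-hydroxylase, had 107 reads in HKO input and 6 in flox input (3.86, 2.69 to 5.34), with 35.9% of its words also in Cyp2a5. Acot3, a peroxisomal thioesterase, had 234 reads in HKO input and 54 in flox input (1.82, 1.39 to 2.28), and Prlr, the prolactin receptor, had 77 in HKO and 22 in flox (1.51, 0.81 to 2.27). Cyp2c69 was listed with 0 reads in HKO input and 140 in flox input, which is at least 57.2-fold lower when 0 is taken as 3 reads, while the exact interval used for the other genes ends at a log2 change of -5.52. Of its words 33.1% also occur in Cyp2c40 and Cyp2c68. Sult2a8, a hepatic sulfotransferase whose place on this list is uncertain, had 215 reads in HKO input and 2633 in flox input (-3.91, -4.12 to -3.71). Of the genes of the sex chromosomes used to tell the sexes, 3 of 13 had a peak, all on the X chromosome. Eif2s3x, a translation initiation factor, had 56 reads in HKO input and 22 in flox input (1.05, 0.32 to 1.84). It was the 1 of the 3 past 2-fold, though not with size factors. Ddx3x had 1133 reads in HKO input and 704 in flox input (0.39, 0.25 to 0.53), and Kdm5c had 309 in HKO and 237 in flox (0.09, -0.16 to 0.34). A peak over no gene on the Y chromosome, from 90737783 to 90738920 and closest to the start of the pseudogene Mid1-ps1, had 40 reads in HKO input and 102 in flox input (-1.65, -2.21 to -1.10). How the sexes were divided between the pools cannot be told apart from genotype with these labels.

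Serpina1e, an alpha-1-antitrypsin gene of male-biased expression, made the largest fall in RPM of any nuclear gene. It had 3150 reads in HKO input and 25893 in flox input (172 RPM in HKO and 1729 in flox), a change of -3.33 (-3.39 to -3.28), or 10.1-fold lower. The peak lies over exon 2 on chromosome 12 from 103950779 to 103951163, and 67.4% of its words also occur in other Serpina1 copies. Serpina1b, measured at its own peak, had 5886 reads in HKO input and 7056 in flox input (-0.56, -0.61 to -0.51). In the same family Serpina6, which encodes corticosteroid-binding globulin, had 3901 reads in HKO input and 1152 in flox input (1.47, 1.37 to 1.56). Serpina4-ps1, a pseudogene, had 64 reads in HKO input and 1109 in flox input (-4.41, -4.80 to -4.05), with none of its words elsewhere.

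Falls were frequent in the Cyp2c family of drug and steroid P450 enzymes. In the Cyp2c family, picked after its values were seen, 8 of 10 genes were at least 2-fold lower (80%, against 4.27% of all genes). There were 0 higher, and the family held 408 RPM in HKO input and 1064 RPM in flox input. Cyp2c23, Cyp2c29 and Cyp2c70 shared no words, and the other members shared from 13.4% (Cyp2c38) to 69.7% (Cyp2c37). For those members the fall is better read for the family than for a single gene. Cyp2c29, a constitutive P450 with no shared words, had 4653 reads in HKO input and 8988 in flox input (-1.24, -1.30 to -1.19). Cyp2c54 had 37 reads in HKO input and 499 in flox input (-4.05, -4.57 to -3.57), with 48.9% of its words in Cyp2c37. On the xenobiotic list 6 of 26 genes were at least 2-fold lower and 1 higher, with a median of -0.45 (-0.67 from the median gene). Cyp4f14, a leukotriene hydroxylase, had 729 reads in HKO input and 2014 in flox input (-1.76, -1.88 to -1.64), and Cyp3a25 had 656 in HKO and 1406 in flox (-1.39, -1.53 to -1.26). The only peak on Cyp3a25 lies in its last intron, with no word of its exons under it, so its exons were not measured. The gene that rose was Ahr, the dioxin receptor, with 892 reads in HKO input and 231 in flox input (1.65, 1.44 to 1.87).

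Bile acid genes pointed in different directions. Cyp7a1, the rate-limiting enzyme of the classical pathway, had 667 reads in HKO input and 159 in flox input (1.77, 1.52 to 2.03), and its 2 peaks had 162 and 505 reads in HKO input and 39 and 120 in flox input. Cyp7b1, of the alternative pathway, fell as given above. The uptake transporter Slc10a1 (NTCP) had 3901 reads in HKO input and 6961 in flox input (-1.13, -1.19 to -1.07), and the export pump Abcb11 had 750 in HKO and 1354 in flox (-1.15, -1.28 to -1.02). Over its peak called in both genotypes alone, at the 5′ UTR, Abcb11 had 34 reads in HKO input and 30 in flox input (-0.11), and the rest of its reads lay in peaks called in flox alone. Abcc3, which moves bile acids into blood, had 84 reads in HKO input and 12 in flox input (2.51, 1.63 to 3.52). In all, 2 of 17 genes were higher (11.8%, against 13.7% of all genes) and 4 lower (23.5%, against 4.27%) by at least 2-fold. The median of 0.19 becomes -0.03 with size factors.

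For lipid metabolism, the concern of the study, counts are to be read against 13.7% of all genes higher and 4.27% lower. Of 16 lipogenic genes 4 were higher and 1 lower by at least 2-fold, with a median of 0.09 that becomes -0.13 with size factors. Fasn, the fatty acid synthase, had 102 reads in HKO input and 26 in flox input (1.68, 1.04 to 2.36). All of these reads lie in a single peak over exon 2 that was called in HKO alone. The study measured Fasn mRNA by RT-qPCR in livers of both genotypes at the same age and reported it decreased in HKO mice. The input reads and the RT-qPCR thus differ in direction, and the cause was not tested. Elovl6, a fatty acid elongase, had 296 reads in HKO input and 118 in flox input (1.03, 0.72 to 1.35). Acaca, acetyl-CoA carboxylase, had 808 reads in HKO input and 333 in flox input (0.98, 0.80 to 1.17). Insig1, which retains SREBP in the endoplasmic reticulum, had 1653 reads in HKO input and 3038 in flox input (-1.17, -1.26 to -1.09). Agpat2, which acylates lysophosphatidic acid, had 4878 reads in HKO input and 1778 in flox input (1.16, 1.08 to 1.24), but the same peaks overlap the endothelial gene Egfl7.

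Of 10 measured genes of fatty acid uptake, 3 were higher and 1 lower by at least 2-fold, with a median of 0.07 that becomes -0.15 with size factors. Fabp1, the abundant liver fatty acid binding protein, had 8063 reads in HKO input and 14056 in flox input (-1.10, -1.14 to -1.06). In fatty acid oxidation 3 of 24 genes were higher (12.5%) and 1 lower (4.17%) by 2-fold, shares close to those of all genes, with a median of 0.20 that becomes -0.02. Cyp4a14, an omega-hydroxylase induced by PPAR-alpha, had 5340 reads in HKO input and 1524 in flox input (1.51, 1.43 to 1.60), and Pdk4, which spares glucose by blocking pyruvate dehydrogenase, had 386 in HKO and 121 in flox (1.38, 1.08 to 1.69). Ppara had 769 reads in HKO input and 1063 in flox input (-0.76, -0.90 to -0.63), and Cpt1a, the gate of mitochondrial oxidation, had 860 in HKO and 1143 in flox (-0.71, -0.83 to -0.58). Both changes were smaller than 2-fold. The study, by RT-qPCR at the same age, reported the mRNA of Ppara and of Cpt1a as unaltered in HKO livers. The cause of the difference was not tested.

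Of 14 genes of lipolysis and lipid droplets, 1 was higher and 2 lower by 2-fold, with a median of -0.31. Pnpla2, the triglyceride lipase ATGL, had 447 reads in HKO input and 748 in flox input (-1.04, -1.21 to -0.87). G0s2, the inhibitor of ATGL, had 128 in HKO and 240 in flox (-1.20, -1.52 to -0.89), in a peak shared with Lamb3. Among apolipoproteins and VLDL genes 4 of 18 were higher and 1 lower by 2-fold, with a median of -0.09. Lcat, which esterifies cholesterol in plasma, had 898 reads in HKO input and 1518 in flox input (-1.05, -1.17 to -0.93), all shared with Gm16156. Apom, a carrier of sphingosine-1-phosphate, had 614 reads in HKO input and 862 in flox input (-0.78, -0.94 to -0.63), and Apoc1 lay at -0.49. Apoa4, which is packed into chylomicrons and VLDL, had 13063 reads in HKO input and 2455 in flox input (2.12, 2.05 to 2.18), with peaks shared with the predicted genes Gm10680 and Gm47528. Apoa5 had 35650 reads in HKO input and 20065 in flox input (0.53, 0.51 to 0.56). Of these, 33018 in HKO input and 18764 in flox input lay in a peak that another gene also overlaps. Angptl8, an insulin-induced inhibitor of lipoprotein lipase, had 1212 reads in HKO input and 275 in flox input (1.85, 1.66 to 2.04), in peaks shared with Dock6.

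In carbohydrate metabolism 1 of 17 genes was higher and 2 lower by 2-fold, with a median of 0.43. Pklr, liver pyruvate kinase, had 3569 reads in HKO input and 1034 in flox input (1.49, 1.39 to 1.59). Pck1, the cytosolic PEPCK of gluconeogenesis, had 10885 reads in HKO input and 24904 in flox input (-1.49, -1.52 to -1.46). The glycolytic enzyme was thus higher and the gluconeogenic enzyme lower. Of 26 measured insulin signalling genes, 3 were higher (11.5%) and 1 lower (3.85%), shares close to the 13.7% and 4.27% of all genes. Their median of 0.18 becomes -0.04 with size factors. Cholesterol genes had 4 of 17 higher and 1 lower, with a median of 0.05 that becomes -0.16.

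Among clock genes only falls reached 2-fold, with 5 of 17 at least 2-fold lower, 0 higher and a median of -0.12 (-0.34 from the median gene). Dbp, the albumin D-site binding factor whose mRNA cycles strongly in liver, had 105 reads in HKO input and 959 in flox input (-3.49, -3.79 to -3.19), with 65.8% of the reads in a peak shared with Sphk2. Tef, a PAR bZIP factor like Dbp, had 122 reads in HKO input and 364 in flox input (-1.87, -2.18 to -1.57). Usp2, a deubiquitinase with a strong cycle, had 14 reads in HKO input and 97 in flox input (-3.09, -4.01 to -2.27), and the heme receptor Nr1d1 had 239 in HKO and 507 in flox (-1.38, -1.61 to -1.15), with 69.7% of them shared with Thra and a change of -0.81 over the peak that is not. Nfil3, which opposes the PAR bZIP factors at the same sites, had 1965 reads in HKO input and 806 in flox input (0.99, 0.87 to 1.11). The hour at which the livers were taken is not given in the labels, so genotype and hour cannot be told apart.

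Genes of hepatocyte identity had medians close to the median gene or below it. Of 40 measured secreted proteins of the hepatocyte, 0 were higher and 2 lower by at least 2-fold, with a median of -0.20, and Azgp1, a secreted glycoprotein, had 7757 reads in HKO input and 13254 in flox input (-1.07, -1.11 to -1.03). Of 27 hepatocyte transcription factors 2 were higher and 0 lower, with a median of 0.12 that becomes -0.10 with size factors. Onecut1 (HNF6), which is a target of growth hormone, had 749 reads in HKO input and 236 in flox input (1.37, 1.16 to 1.59), and Prox1 had 714 in HKO and 286 in flox (1.03, 0.83 to 1.23). Of the pericentral list 3 of 11 were lower, among them Oat, ornithine aminotransferase, with 1704 reads in HKO input and 3576 in flox input (-1.36, -1.45 to -1.28). Of the periportal list 2 of 15 were lower and 1 higher, with a median of -0.50. Nuclear-encoded respiratory genes had 1 of 22 higher and 0 lower, with a median of 0.03 that becomes -0.18. The 5 mitochondrial transcripts measured lay between -0.60 and -0.21.

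The m6A machinery itself was measured in part. Of 8 genes with a peak on the list of the writer complex, 2 were higher (25%, against 13.7% of all genes) and 0 lower by at least 2-fold. The median was 0.59. Mettl16, listed here as a methyltransferase of Mat2a and U6 RNA, had 88 reads in HKO input and 26 in flox input (1.46, 0.82 to 2.16). Rbm15, which recruits the writer to its targets, had 147 in HKO and 58 in flox (1.05, 0.60 to 1.51), but 0.83 with size factors. Wtap, the adaptor of the complex, had 132 reads in HKO input and 79 in flox input (0.45, 0.03 to 0.87). Of 11 readers and erasers 2 were higher (18.2%, also near the share of all genes) and 0 lower, with a median of 0.54. Ythdf2, the reader that promotes decay, had 112 reads in HKO input and 26 in flox input (1.81, 1.19 to 2.49). Ythdf1 had 859 in HKO and 334 in flox (1.07, 0.88 to 1.25), but 0.85 with size factors. Ythdf3 had 1162 in HKO and 585 in flox (0.70, 0.55 to 0.84).

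Where a gene had several peaks, each gave a separate reading of the same transcript pool. Among 3168 genes with at least 2 peaks of at least 20 reads, all peaks changed in 1 direction in 2063 (65.1%). For the 2 deepest peaks of 2111 genes with at least 100 reads in each, the changes had the same sign in 1607 genes (76.1%), with a Pearson r of 0.74 across genes, which is a description since both peaks come from the same libraries. The median absolute difference between them was 0.30 on the log2 scale, against a counting standard error of 0.25. In 706 pairs (33.4%) the peaks differed by more than the 95% counting interval of a difference. In the same genes the first and the last peak along the gene were also compared, among peaks with at least 100 reads and whatever their depth. The last peak, nearest the 3′ end, had the lower log2 change in most genes. Its change minus that of the first (5′) peak had a median of -0.23, and it was above the 5′ peak in 636 genes (30.1%).

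The 3 peaks of Fos follow that order. The peak at its 5′ UTR had 268 reads in HKO input and 11 in flox input (4.31), that over exon 3 had 143 in HKO and 8 in flox (3.87), and that over the last exon had 1003 in HKO and 101 in flox (3.02). In Myc the exon 2 peak had 751 reads in HKO input and 33 in flox input (4.21) and the last-exon peak 989 in HKO and 80 in flox (3.33). In Ccn1 the first-exon peak had 661 reads in HKO input and 22 in flox input (4.61) and the 3′ UTR peak 1520 in HKO and 91 in flox (3.77). Klf6, in contrast, had 4.07 at exon 2 and 3.99 at the 3′ UTR, and Atf3 had 6.17 at exon 3 and 6.16 at the 3′ UTR. The Fos peaks were called in HKO alone at the 5′ UTR and exon 3, and in flox alone at the last exon. Those of Ccn1 were called in HKO alone at the first exon and in both genotypes at the 3′ UTR. Position and calling genotype cannot be told apart in Fos and Ccn1. In Myc the higher exon 2 peak was called in flox alone. By region, over all peaks, the median change was 0.30 for 2000 peaks at the 5′ UTR or first exon, 0.31 for 3026 at inner exons, 0.26 for 2575 at the last exon, 0.14 for 2694 at the 3′ UTR and 0.13 for 1164 in introns.

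**Figure D4:**
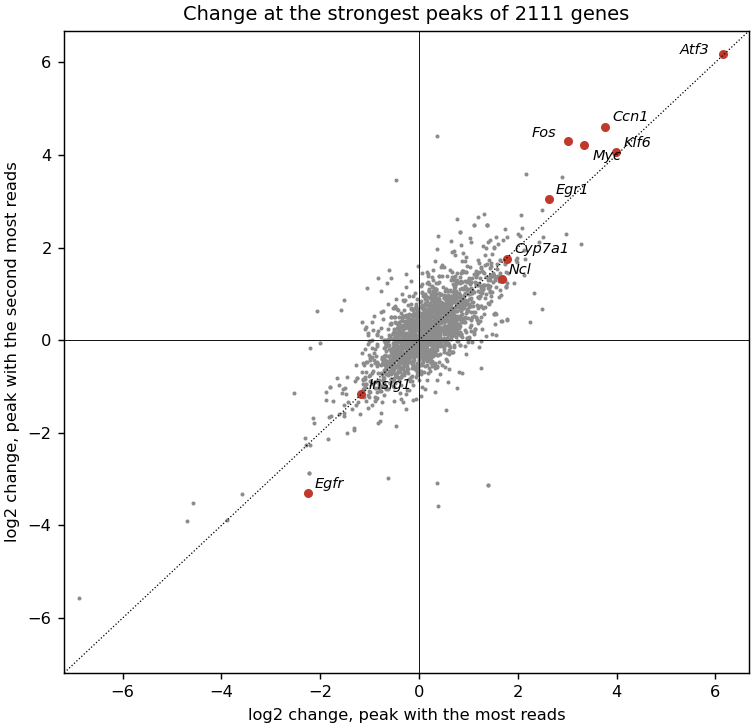
Log2 change of HKO over flox input at the peak with the second most reads (vertical) against the peak with the most reads (horizontal) for 2111 genes with at least 100 reads in each; the dotted line marks equal change and named genes are in red. Atf3 lies on the line near 6.16, while Fos, Myc and Ccn1 lie above it.

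The genotype in which a peak had been called from the immunoprecipitated RNA also went with its input change. The median was 0.36 over 3652 peaks called in HKO alone, 0.19 over 5465 called in both and 0.20 over 2563 called in flox alone. Of peaks called in HKO alone, 21.1% were at least 2-fold higher and 1.94% lower. The shares were 12.1% and 3.42% for both, and 13.9% and 9.95% for flox alone. Btg2, Cyp2a4, Cxcl1 and Fasn rose on peaks called in HKO alone, and Cyp2c69, Cyp2c54 and Cyp7b1 fell on peaks called in flox alone. Mettl16, Rbm15 and Ythdf2 went the other way, rising on peaks called in flox alone. Restricting genes to peaks called in both genotypes left 4492 genes, of which 532 were higher and 135 lower by at least 2-fold. The autosomes and the X had medians of similar size, between 0.17 and 0.27.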

How the data were processed

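The authors deposited one table of m6A peaks, merged over both genotypes, with a line for each gene a peak overlaps. Reads had been aligned to GRCm38 with BWA 0.7.12-r1039. The submitters' processing notes further list FastQC, HOMER and MACS2 2.1.0, whereas exomePeak is the caller in the study's methods, and which of them made the table is not settled. No source used here states whether counting used strand, so overlapping and antisense genes cannot be told apart. The read counts per peak were deposited by the authors without normalization. Each RPM value, also deposited, is the count with 1 added over the library total, and the totals were recovered from that relation. The deposited fold enrichment ratio and log2 change compare immunoprecipitated RNA between genotypes and were not used. The number of per-sample value columns without a sample was 0.

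The table's 14395 lines were reduced to 12815 distinct peaks, and input counts were summed per gene symbol. The symbols of 13 genes had been turned into dates and were kept apart by gene identifier. A gene was called by size, at least 2-fold with at least 20 reads in both inputs together, since 1 library per genotype allows no test. Intervals are exact (Clopper-Pearson, 95%) on the HKO share of both inputs' reads. A count of 0 was taken as 3 reads, which is 0.163 RPM in HKO input and 0.200 RPM in flox input. Sharing of sequence was read from 50-base words of GENCODE transcripts on GRCm38 under each gene's peaks, available for 7326 genes, and 670 genes had at least 10% of their words in another gene. Coordinates are printed as the table gives them.

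The genes named were 4 at the centre of the study (Mettl3, Cd36, Ccl2 and Srebf1), the 15 largest rises and falls among genes with at least 100 reads without predicted genes, the 10 genes with the most reads per kb of peak, and up to 6 members per list with at least 100 reads and the largest change in size. The members and lists were chosen with earlier results of these data known. The remaining named genes, the 10 gene families and the 3 lists of the closing section were chosen after their values were seen. Promoters came from RefSeq, which had an entry for 5412 of the 7729 genes.

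Alternatives were DESeq2 size factors, the edgeR TMM factor, peak-read totals, other minimum reads, pseudocounts, sizes of change and choices of peak. The computation was tested on simulated data. Tools were Python 3.11.15, numpy 2.4.6, pandas 2.3.3, scipy 1.17.1, matplotlib 3.10.9, R 4.3.3, edgeR 4.0.16 and DESeq2 1.42.0.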

Additional observations from a re-analysis of the deposited data

Results flagged for a closer look

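Peaks that overlap no gene entered none of the gene values, and some had large changes in either direction. Among those most reduced in HKO input, near Gm22036 on chromosome 6 a peak had 4 reads in HKO input and 131 in flox input (-5.33, -7.23 to -3.94) and another 15 in HKO and 242 in flox (-4.31, -5.17 to -3.56), and a peak near Hdc on chromosome 2 had 4 in HKO and 123 in flox (-5.24, -7.14 to -3.84). Another 2 had at least 100 reads and far more reads in HKO input than in flox input. The peak on chromosome 4 from 12134930 to 12136084 (GRCm38), whose closest listed start is that of Gm11843, had 1322 reads in HKO input and 126 in flox input, a log2 change of 3.10 (2.83 to 3.37). The peak on chromosome 12 from 19119294 to 19121260, closest to Gm9158, had 1455 reads in HKO input and 143 in flox input, a log2 change of 3.05 (2.8 to 3.31). Both lay beyond the 95th percentile of genes at 1.51. No group had enough libraries for a search for samples that stand apart.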

How the results depend on the processing

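No paired analysis was possible because each genotype has 1 input library and no replicate number, and for the same reason no library could be left out. The count of genes at least 2-fold higher was 1058 and of those lower 330. It was 708 and 506 with DESeq2 size factors, 705 and 509 with TMM, 532 and 135 with peaks called in both genotypes, 2206 and 768 at 1.5-fold, 149 and 71 at 4-fold, and 402 and 145 when the whole interval had to lie beyond 2-fold. At least 100 reads left 219 lower. The median over genes, 0.22, became 0.00011 with size factors, -0.0018 with TMM, and 0.19 with peak-read totals, with 5 reads added, or with peaks called in both genotypes. All peaks of a gene changed in 1 direction in 65.1% of genes, in 69.6% with 100 reads a peak, and in 99.3% when the gene also had to change 2-fold, a condition that itself favours peaks of 1 direction. Of 132 named genes called, 32 lost the call under at least 1 alternative, and 0 changed sign. Among 10 lists with a median of at least 1 in size, 4 fell below 1 under at least 1 alternative: feedback regulators, NRF2 response, p53 targets and male-biased genes. The causes were not tested, except that rescaling moves every gene by the same amount. Genes under 100 reads have wide intervals, and no interval here covers variation between mice or libraries.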

Other observations

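Other gene groups, listed after their values had been seen, are given as values. Of 50 genes of ribosome biogenesis and the nucleolus, 12 were higher and 0 lower by at least 2-fold, with a median log2 change of 0.46 (0.24 above the median gene). Ncl, nucleolin, had 4115 reads in HKO input and 1153 in flox input (1.54, 1.45 to 1.64), with 59.2% of them in a peak shared with Snord82. Rrs1, a ribosome assembly factor, had 553 reads in HKO input and 138 in flox input (1.71, 1.44 to 1.99), and Tsr1, a maturation factor of the small subunit, had 149 in HKO and 36 in flox (1.75, 1.22 to 2.32). Of the 8 ribosomal protein genes with a peak 1 was 2-fold higher, and their median was 0.64. Rps9 had 2192 reads in HKO input and 1076 in flox input (0.73, 0.63 to 0.84).

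Of 20 keratin, tubulin and actin genes, 6 were higher and 0 lower by at least 2-fold, with a median of 0.63. Krt8, a hepatocyte keratin, had 1042 reads in HKO input and 268 in flox input (1.66, 1.47 to 1.86), in a peak shared with Gm36026, while its partner Krt18 had 520 in HKO and 288 in flox (0.56, 0.35 to 0.77). Tubb2a had 2673 reads in HKO input and 709 in flox input (1.62, 1.5 to 1.74). Actb lay within 2-fold at 5136 reads in HKO input and 2324 in flox input (0.85, 0.78 to 0.92).

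Falls prevailed in amino acid catabolism. Of 52 genes 1 was higher and 10 lower by at least 2-fold, with a median of -0.50 (-0.72 from the median gene), and the peaks summed to 4106 RPM in HKO input and 6263 RPM in flox input. Etnppl, which breaks down phosphoethanolamine, had 419 reads in HKO input and 1211 in flox input (-1.83, -1.99 to -1.66). Got1, aspartate aminotransferase, had 1622 reads in HKO input and 2876 in flox input (-1.12, -1.21 to -1.03). The exception was Csad, which makes the taurine precursor hypotaurine, with 2447 reads in HKO input and 697 in flox input (1.52, 1.40 to 1.64).

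Zinc-finger genes named Zfp, 124 of them measured, had 19 higher (15.3%, against 13.7% of all genes) and 2 lower by at least 2-fold, with a median of 0.39. Of 976 peaks over no gene with at least 20 reads, 13.4% were higher and 11.5% lower by at least 2-fold, with a median of 0.09. Red blood cell genes had 2 of 3 lower, with Hbb-bs at 186 reads in HKO input and 324 in flox input (-1.10, -1.36 to -0.83), where 59.4% of its words also occur in other genes.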
